A study of Mus musculus with 8 samples.

Results

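Oxidative phosphorylation subunits are the proteins of respiratory complexes I to V, and the nuclear genes that encode them were followed here in the hearts of embryos with a hypomorphic *Kdm1a* (*Aof2*, Lsd1) allele. The set was a list of 46 nuclear genes of the 5 complexes and cytochrome c. It was drawn up by name but with earlier results of these data known, so counts over it are descriptions. Of these, 45 had a probe set annotated to that gene alone, out of 18195 such genes on the array, and the probe set with the highest mean stood for the gene. The X-linked *Cox7b* had none and was not analysed here. The measured genes were 20 of complex I, 3 of complex II, 6 of complex III, *Cycs*, 10 of the 11 listed for complex IV, and 5 of complex V.

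Whole hearts were taken at E18.5 from 5 wild-type and 3 2lox/2lox animals and profiled on Affymetrix Mouse430 arrays, with a separate animal and array for every heart. In the 2lox/2lox embryos both copies of *Kdm1a* are the floxed, unrecombined allele, which carries unintended point mutations in the tower domain of Lsd1, so a mutated protein is still made although the labels also call these samples a knock-out. The groups were littermates in origin, but the sources used here do not give which hearts shared a litter, their sex or the mouse strain. The study compared the genotypes to find genes whose expression differs when Lsd1 is impaired, and the subunit genes are described within that comparison.

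The respiratory chain passes electrons from NADH (complex I) and succinate (complex II) through ubiquinone to complex III, on through cytochrome c to complex IV, and finally to oxygen. The pumping of protons at complexes I, III and IV drives ATP synthase, which is complex V. Most subunits are encoded in the nucleus and some in mitochondrial DNA, and heart muscle, with its steady demand for ATP, is among the tissues richest in these complexes. Several complex IV subunits exist as a ubiquitous form and a form made mainly in heart and skeletal muscle, and the muscle forms increase as the heart matures around birth.

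The arrays were alike in scale, with medians of 5.03 to 5.10 on the log2 scale. *Kdm1a* fell by 0.81 on the log2 scale in its brightest probe set (limma adjusted p = 5.15e-04), and its 3 2lox/2lox values lay below all 5 wild-type values. Of 22 cardiomyocyte markers, 19 had means above the 95th percentile of the array and 0 lay below its median. RNA quality was read from control probe sets of *Actb* and *Gapdh* as the log2 excess of 3′ over 5′ signal, which reached 0.52 and 0.50 in 2lox/2lox hearts 1 and 2. It was 0.33 in 2lox/2lox heart 3, and wild-type hearts ranged from 0.32 to 0.38. A high *Xist*, the RNA of the inactive X chromosome of females, was read in 2lox/2lox heart 3 and wild-type heart 2 and in no other heart.

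Known regulators of these genes include NRF-1, GABP (also called NRF-2), the estrogen-related receptors and YY1, and the upstream sequences of 3 complex IV genes are shown because *Cox7a1*, a muscle form, had the highest difference between genotypes, while *Cox7a2*, its ubiquitous partner, and the ubiquitous *Cox6a1* were among those with the least. The sequences are the 250 bases before the annotated start in RefSeq (GRCm38.p6), read 5′ to 3′ on the gene's strand, at chr5:115348959-115349208 for *Cox6a1*, chr7:30183921-30184170 for *Cox7a1* and chr9:79759854-79760103 for *Cox7a2*. Capitals mark matches to NRF-1 (GCGCANGCG) or GABP (CCGGAAG) on either strand.
Cox6a1: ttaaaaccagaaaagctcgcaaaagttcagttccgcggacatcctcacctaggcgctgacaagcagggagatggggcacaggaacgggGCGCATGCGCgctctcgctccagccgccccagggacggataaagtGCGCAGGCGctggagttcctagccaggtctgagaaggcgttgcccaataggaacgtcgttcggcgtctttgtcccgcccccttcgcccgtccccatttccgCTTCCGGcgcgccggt
Cox7a1: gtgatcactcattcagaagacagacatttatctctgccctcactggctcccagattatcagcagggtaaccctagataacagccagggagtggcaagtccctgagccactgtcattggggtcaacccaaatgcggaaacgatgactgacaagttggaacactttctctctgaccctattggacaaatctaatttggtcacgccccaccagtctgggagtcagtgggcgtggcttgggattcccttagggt
Cox7a2: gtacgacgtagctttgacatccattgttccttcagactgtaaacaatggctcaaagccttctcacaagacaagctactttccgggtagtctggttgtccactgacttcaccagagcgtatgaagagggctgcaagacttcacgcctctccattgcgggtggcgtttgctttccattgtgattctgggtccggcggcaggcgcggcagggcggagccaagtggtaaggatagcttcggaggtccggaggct
*Cox6a1* held 3 NRF-1 matches, of which a pair overlap, and 1 GABP match, and the other windows held neither. The *Cox6a1* stretch had 26 CpG dinucleotides, *Cox7a2* had 14 and *Cox7a1* had 4. A match is a run of letters and not a shown binding site, and an absent match says only that these letters are not in this window.

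Over the windows of 250 bases before to 50 after the start, 33 of the 45 genes had an entry. NRF-1 letters were found in 10 of them (30.3%), against 11.5% of the 14369 array genes with a window. The 10 were *Atp5c1*, *Atp5o*, *Cox6a1*, *Cycs*, *Ndufa5*, *Ndufa8*, *Ndufb10*, *Sdha*, *Sdhd* and *Uqcrc1*. GABP letters stood in 6 of 33 (18.2% against 15.0%) and YY1 letters (AAGATGGCG) in 3 of 33 (9.1% against 2.5%). ERR letters (TCAAGGTCA) stood in *Sdhd* alone (3.0% against 0.4%), and MEF2 letters (CTAAAAATA) in no member (0.4% of array genes). The genes with NRF-1 letters had a median log2 difference between genotypes of 0.02 and the 23 without had 0.03, which lie close together.

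No subunit gene passed the test between genotypes. Of the 45 genes, 0 had a limma adjusted p under 0.05, where 0.0798% of all 45101 probe sets did, and the lowest adjusted p was 0.326. At an unadjusted limma p under 0.05, 1 was higher in the 2lox/2lox hearts, *Cox7a1*, against 5.82% of all genes, and 0 were lower, against 4.41% of all genes. The log2 difference, 2lox/2lox minus wild-type, was positive for 30 genes and negative for 15, with a median of 0.03, where all genes had a median of -0.0046. The 2lox/2lox hearts lay above every wild-type heart for 2 genes, *Cox6a2* and *Cox7a1*, against 3.16% of all genes, and below every wild-type heart for 0, against 2.81%.

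The differences these hearts leave room for were small as read on these arrays. For 43 of the 45 genes the 95% interval of the difference lay within a fold of 1.4 in either direction, the fold that the methods name. The exceptions were *Cox7a1* and *Cox8b*. This was also so for 92.7% of all genes and for 93.2% of the 2046 genes at least as bright as the dimmest member, so the share is near the background. Half-widths of the interval had a median of 0.15 on the log2 scale. Means of 18 of the 45 genes lay above the 99th percentile of probe set means, and the array maxima were 14.42 to 14.55. Whether differences read smaller that near the top of the scale was not tested. Apart from the muscle forms *Cox6a2*, *Cox7a1* and *Cox8b*, the other 42 genes had log2 differences from -0.11 to 0.12, and none had an adjusted p under 0.628 in limma.

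**Figure D1:**
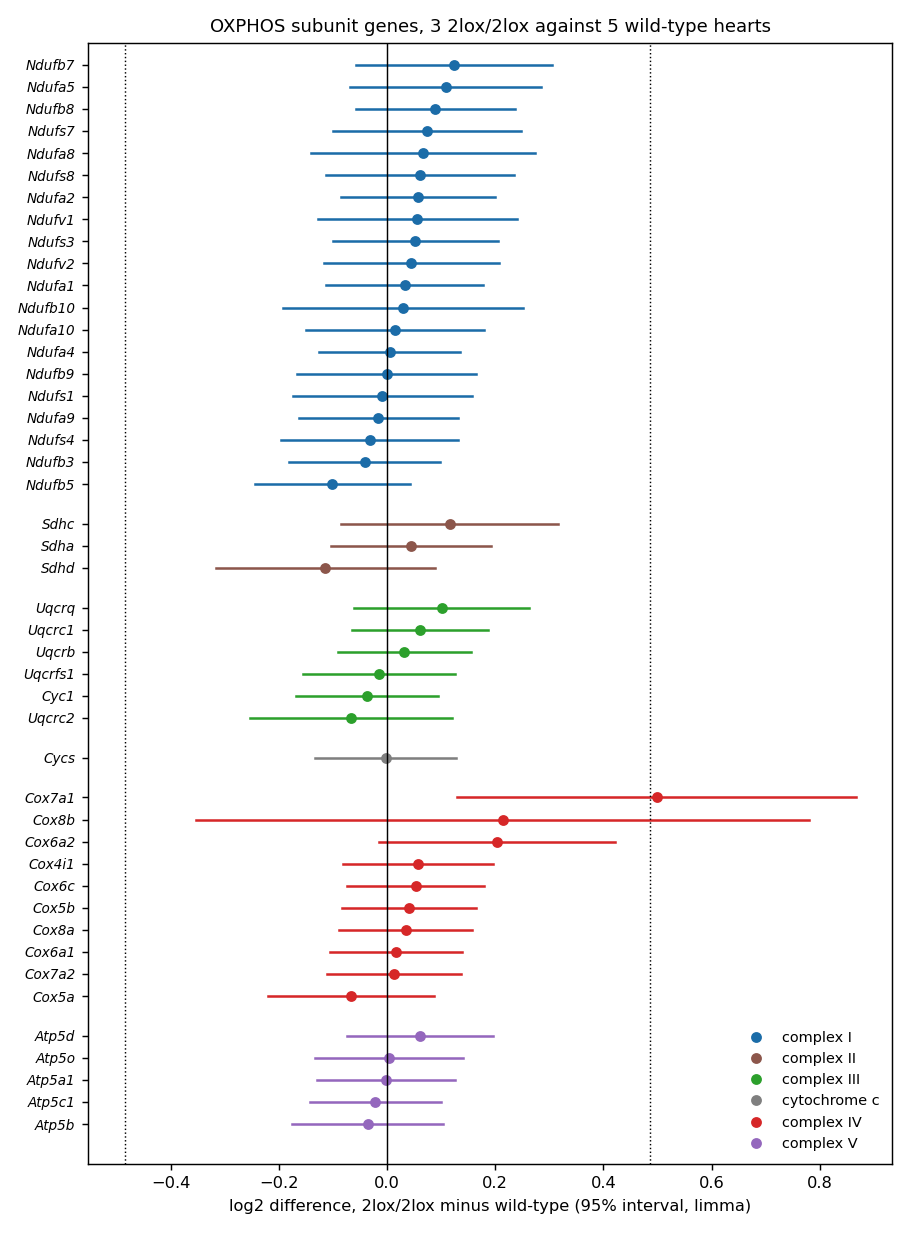
Log2 difference, 2lox/2lox minus wild-type, of the 45 oxidative phosphorylation subunit genes, grouped by complex. Points are limma estimates, lines are 95% intervals, and dotted lines mark a fold of 1.4 in either direction. *Cox7a1* (0.50), *Cox8b* (0.21) and *Cox6a2* (0.20) have the highest estimates, and the intervals of *Cox7a1* and *Cox8b* cross a dotted line.

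Complex I takes electrons from NADH, and its 20 genes had a median log2 difference of 0.04 with 0 past the adjusted threshold and 0 at an unadjusted p under 0.05 (limma). The core subunits carry the flavin and the iron-sulfur clusters. *Ndufv1*, which binds NADH and flavin, had a log2 difference of 0.06, and its partner *Ndufv2* had 0.04. The iron-sulfur subunit *Ndufs1* had -0.0087, *Ndufs7* had 0.07 and *Ndufs8* had 0.06. *Ndufs3*, a core subunit next to the site of ubiquinone reduction, had 0.05.

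The other complex I genes encode accessory subunits, which surround the core and help the complex assemble. Of these, *Ndufb7*, a subunit of the membrane arm, had the highest difference. Its log2 values were 11.99, 11.93, 12.23, 11.94 and 12.08 in wild-type hearts 1 to 5 and 12.27, 12.11 and 12.09 in 2lox/2lox hearts 1 to 3. The 2lox/2lox hearts were high but wild-type heart 3 lay above 2 of them, and the difference was 0.12 (standard error 0.08, limma adjusted p = 0.648). *Ndufb5*, also of the membrane arm, had the lowest, with 12.05, 12.09, 12.24, 12.01 and 12.15 in the wild-type hearts and 11.98, 12.04 and 11.99 in the 2lox/2lox hearts. Wild-type heart 4 lay among the 2lox/2lox hearts, so the groups overlapped, and the difference was -0.10 (standard error 0.06, limma adjusted p = 0.628).

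The X-linked *Ndufa1*, whose product sits in the membrane arm, had log2 values of 12.30, 12.35, 12.43, 12.25 and 12.46 in the wild-type hearts and 12.42, 12.42 and 12.33 in the 2lox/2lox hearts. All 3 lay inside the wild-type range. Of the hearts with high *Xist*, wild-type heart 2 held the middle value of its group and 2lox/2lox heart 3 the lowest. The other membrane arm genes *Ndufb3*, *Ndufb8*, *Ndufb9* and *Ndufb10* had differences of -0.04, 0.09, -0.0010 and 0.03. *Ndufa5* and *Ndufa9*, of the part that reduces ubiquinone, had 0.11 and -0.02. *Ndufa2*, *Ndufa8* and *Ndufa10*, further accessory subunits, had 0.06, 0.07 and 0.01. *Ndufa4*, listed here under complex I although its protein is now counted with complex IV, had 0.0052.

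*Ndufs4*, an accessory subunit whose loss causes a mitochondrial disease in mice and people, had -0.03 in its brightest probe set. A dimmer probe set of *Ndufs4* had a log2 difference of -0.26 (limma adjusted p = 0.320). It was the only one of the 96 probe sets of these genes that was lower at an unadjusted limma p under 0.05. Among all 45101 probe sets, 2227 were. The gene's next brightest probe set had -0.03, and a further one, with a mean of 3.91, lay too near background to be read. Over all 96 probe sets, 0 passed the adjusted threshold in limma.

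Complex II links the citric acid cycle to the chain. *Sdha*, its flavoprotein, had a log2 difference of 0.04. *Sdhc*, a membrane anchor, had log2 values of 11.17, 11.08, 11.34, 11.12 and 11.43 in the wild-type hearts and 11.25, 11.46 and 11.31 in the 2lox/2lox hearts, a difference of 0.12 (standard error 0.09, limma adjusted p = 0.716). *Sdhd*, the anchor that pairs with it, had 11.45, 11.29, 11.46, 11.33 and 11.59 against 11.15, 11.29 and 11.49, a difference of -0.11 (standard error 0.09, limma adjusted p = 0.725). The anchors thus had estimates of opposite sign in their brightest probe sets, and for both the groups overlapped. Their other probe sets had differences near 0, -0.0008 for *Sdhc* and -0.0067 for *Sdhd*, also with overlapping groups. In its brightest probe set *Sdhd* was the lowest of the 45. There, 2lox/2lox hearts 1 and 2 lay below every wild-type heart, heart 2 only narrowly, while heart 3 lay above 4 of the 5. Without 2lox/2lox heart 3 the difference of this probe set was -0.21, at an unadjusted p under 0.05 (limma adjusted p = 0.313).

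Complex III passes electrons from ubiquinone to cytochrome c. Its 6 genes had a median of 0.0084, the least of any complex with a positive median. *Uqcrq*, a small subunit, was highest, with 11.33, 11.16, 11.38, 11.20 and 11.40 in the wild-type hearts and 11.44, 11.32 and 11.42 in the 2lox/2lox hearts (difference 0.10, standard error 0.07, limma adjusted p = 0.684). Its dimmer probe sets, with means of 5.88, 4.68 and 4.08, had differences of -0.12, -0.14 and 0.04, all with overlapping groups. *Uqcrc2*, a core protein, was lowest, with 12.41, 12.56, 12.57, 12.27 and 12.61 against 12.38, 12.49 and 12.38 (difference -0.07, standard error 0.08, limma adjusted p = 0.842). The 2lox/2lox values of *Uqcrc2* all lay inside the wild-type range, while for *Uqcrq* 2lox/2lox hearts 1 and 3 lay above every wild-type heart and heart 2 lay below 3 of the 5. The other core protein gene *Uqcrc1* had 0.06, and *Uqcrb*, whose product lies by the ubiquinone site, had 0.03. The electron carriers of the complex, the Rieske iron-sulfur protein *Uqcrfs1* and the cytochrome *Cyc1*, had -0.02 and -0.04.

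*Cycs*, the mobile cytochrome c that connects complexes III and IV, had log2 values of 13.07, 13.15, 13.22, 13.19 and 13.14 in the wild-type hearts and 13.09, 13.22 and 13.15 in the 2lox/2lox hearts. These ranges almost coincided, with a difference of -0.0029 and a 95% interval of -0.13 to 0.13.

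Complex V makes ATP. *Atp5a1* and *Atp5b*, the subunits of its catalytic head, had differences of -0.0026 and -0.04. The values of *Atp5b*, the lowest of the complex, were 13.70, 13.74, 13.69, 13.62 and 13.78 in the wild-type hearts and 13.57, 13.72 and 13.72 in the 2lox/2lox hearts (standard error 0.06, limma adjusted p = 0.897). *Atp5d*, of the central stalk, was the highest, with 12.82, 12.81, 12.95, 12.83 and 12.97 against 12.97, 12.93 and 12.91 (difference 0.06, standard error 0.06, limma adjusted p = 0.791). For both genes 2lox/2lox and wild-type hearts overlapped. *Atp5c1*, the turning shaft of the enzyme, had -0.02 and *Atp5o*, of the stalk that holds the head still, had 0.0037.

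Complex IV reduces oxygen, and it had both the widest spread of differences and the pairs of ubiquitous and muscle subunits. *Cox4i1*, the common form of subunit IV, had 0.06, the zinc-binding subunit *Cox5b* had 0.04 and the accessory subunit *Cox6c* had 0.05. *Cox5a*, the lowest of the complex, had log2 values of 13.04, 13.07, 13.03, 13.06 and 13.09 in the wild-type hearts and 12.84, 13.13 and 13.01 in the 2lox/2lox hearts (difference -0.07, standard error 0.07, limma adjusted p = 0.802). Its wild-type hearts had the narrowest range of all 45 genes, 0.07, and the 2lox/2lox hearts fell on both sides of it.

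*Cox7a1*, the muscle form of subunit VIIa, had the highest difference of the 45 genes. Its log2 values were 9.57, 9.34, 10.01, 9.32 and 10.01 in wild-type hearts 1 to 5 and 10.19, 10.14 and 10.12 in 2lox/2lox hearts 1 to 3. The 2lox/2lox hearts lay close together and above all wild-type hearts, but wild-type hearts 3 and 5 were much nearer to them than hearts 2 and 4 were. Group means were 9.65 ± 0.34 (SD, n = 5) for wild-type and 10.15 ± 0.03 (SD, n = 3) for 2lox/2lox. The difference was 0.50 (standard error 0.17, 95% interval 0.13 to 0.87), a fold of 1.41. Its limma adjusted p was 0.326, and unadjusted it was 0.0130. It therefore failed the correction. In the limma fit across all probe sets that had the 3′ excess as a covariate, it was 0.38 and had an unadjusted p over 0.05, 0.133. *Cox7a2*, its ubiquitous partner, had 13.47, 13.49, 13.54, 13.41 and 13.53 in the wild-type hearts and 13.48, 13.55 and 13.47 in the 2lox/2lox hearts, with overlapping groups and a difference of 0.01.

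*Cox6a2*, the muscle form of subunit VIa, had log2 values of 11.42, 11.60, 11.69, 11.29 and 11.70 in the wild-type hearts and 11.80, 11.71 and 11.72 in the 2lox/2lox hearts. The 2lox/2lox hearts were again all above the wild-type hearts, though heart 2 cleared wild-type heart 5 by less than the spread of either group. The difference was 0.20 (standard error 0.10, 95% interval -0.01 to 0.42, limma adjusted p = 0.494), and the gene's other probe set also gave 0.20, there with overlapping groups. *Cox6a1*, the ubiquitous form, had 13.86, 13.92, 13.88, 13.84 and 13.93 against 13.94, 13.93 and 13.84, a difference of 0.02 with overlapping groups.

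*Cox8b*, the muscle form of subunit VIII, varied more between wild-type hearts than any other of the 45 genes. It had log2 values of 9.47, 9.24, 9.89, 8.72 and 10.10 in the wild-type hearts and 9.63, 9.71 and 9.75 in the 2lox/2lox hearts. All 2lox/2lox hearts lay within the wild-type range, which spanned 1.38. The difference was 0.21 (standard error 0.26, limma adjusted p = 0.832), with a 95% interval from -0.35 to 0.78 that leaves room for a change in either direction, and it ran from 0.02 without wild-type heart 4 to 0.37 without wild-type heart 5. *Cox8a*, the ubiquitous form, had 12.04, 11.99, 12.08, 12.00 and 12.11 against 12.10, 12.02 and 12.11, a difference of 0.03 with overlapping groups.

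**Figure D2:**
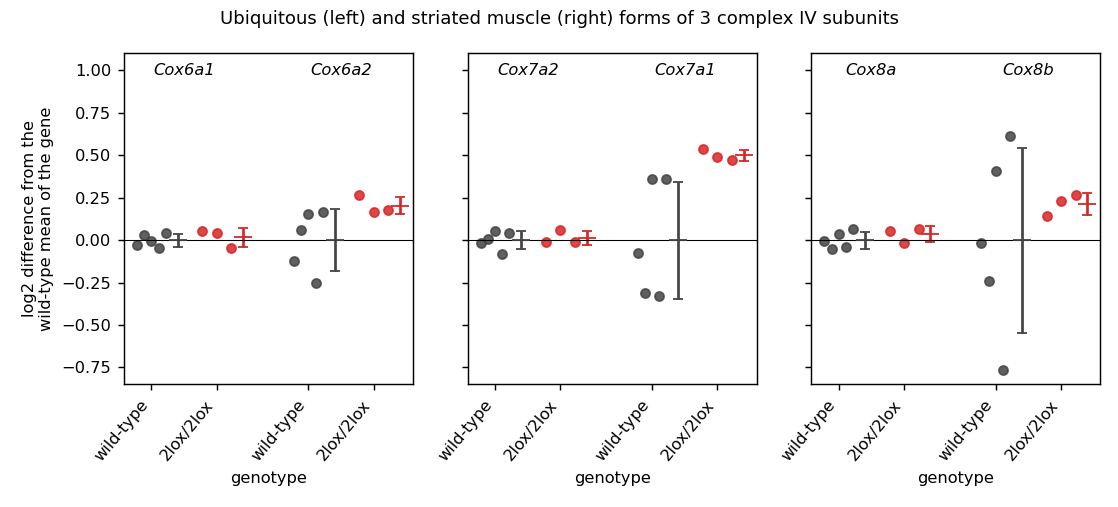
Log2 difference from the gene's wild-type mean for 3 pairs of complex IV subunits, the ubiquitous form on the left and the striated muscle form on the right of each panel. Each point is 1 heart of the 5 wild-type or 3 2lox/2lox, and the bar next to them shows mean ± SD. The muscle forms spread far more between wild-type hearts than the ubiquitous forms, and the 2lox/2lox hearts of *Cox7a1* lie 0.47 to 0.53 above its wild-type mean. Means over all hearts are 12.06 to 13.89 for the ubiquitous and 9.57 to 11.62 for the muscle forms. The part of signal level in the contrast of spreads was not tested.

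Within a heart, the muscle form can be set against its ubiquitous partner as a difference of their log2 values, counted from the wild-type mean of that difference. For *Cox7a1* minus *Cox7a2* it was 0.54, 0.43 and 0.48 for 2lox/2lox and ran from -0.32 to 0.32 for wild-type, so all 3 2lox/2lox hearts lay above. For *Cox6a2* minus *Cox6a1* it was 0.21, 0.12 and 0.23 against -0.21 to 0.15, with 2 hearts above. For *Cox8b* minus *Cox8a* it was 0.09, 0.25 and 0.20 against -0.72 to 0.55, with none above. These ratios are descriptions with no test, since the pairs were chosen with the levels known.

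Markers of skeletal muscle, which also uses the muscle forms, were read beside these genes. Of 22 such markers, 1 rose and 0 fell at the adjusted threshold in limma. The difference was positive for 14 and negative for 8, with a median of 0.06, and unadjusted p-values under 0.05 were found for 3 higher and 0 lower ones. Among all genes 5.82% were higher and 4.41% lower at that level. *Tnni2*, the fast skeletal form of troponin I, rose by 1.32 (limma adjusted p = 0.0240). *Casq1* and *Mybpc1* had 0.41 and 0.44, and *Acta1*, skeletal actin, had 0.43, none past the adjusted threshold (limma adjusted p from 0.342 to 0.466). These are the markers with the smallest p, and the lowest difference of the list, -0.42 for the embryonic myosin *Myh3*, was about as large. Over the whole list the median deviation from the wild-type mean was 0.10, -0.02 and 0.10 for 2lox/2lox, where wild-type values ran from -0.07 to 0.13. Of the 22, 14 had means below the array's median probe set, among them the muscle-forming regulators *Myod1* and *Myog*, with means of 4.54 and 4.50. The myeloid list held 20 markers, 4 of them within 20 Mb of *Kdm1a*. Myeloid markers were positive in 20 of 20, where 8740 of all 18195 genes were, with a median of 0.33 over the list. When p was left unadjusted at 0.05, 12 were higher and 0 lower, while 0 passed the adjusted threshold in limma. The part of these markers in the values of *Cox7a1* and *Cox6a2* was not tested, and in whole-heart RNA more cells of a type and more RNA per cell cannot be told apart.

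The subunit genes varied together between wild-type hearts, by more than their difference between genotypes. Among the 5 wild-type hearts, heart 5 was the highest for 27 of the 45 genes and heart 3 for the remaining 18, where all genes had heart 5 highest in 19.2% and heart 3 in 23.5%. Heart 4 was the lowest for 29 and heart 2 for 14, where all genes had 20.7% and 21.4%, and the 2046 bright genes had 29.0% and 34.2%. The exceptions at the low end were *Cycs*, lowest in heart 1, and *Cox5a*, lowest in heart 3. The median deviation over the 45 genes was -0.02, -0.03, 0.08, -0.09 and 0.09 in wild-type hearts 1 to 5 and 0.05, 0.04 and 0.03 in the 2lox/2lox hearts. The 2lox/2lox hearts thus lay between the extremes of the wild-type hearts. This order was seen in the data and is a description with no test, since genes read on the same array are not independent.

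**Figure D3:**
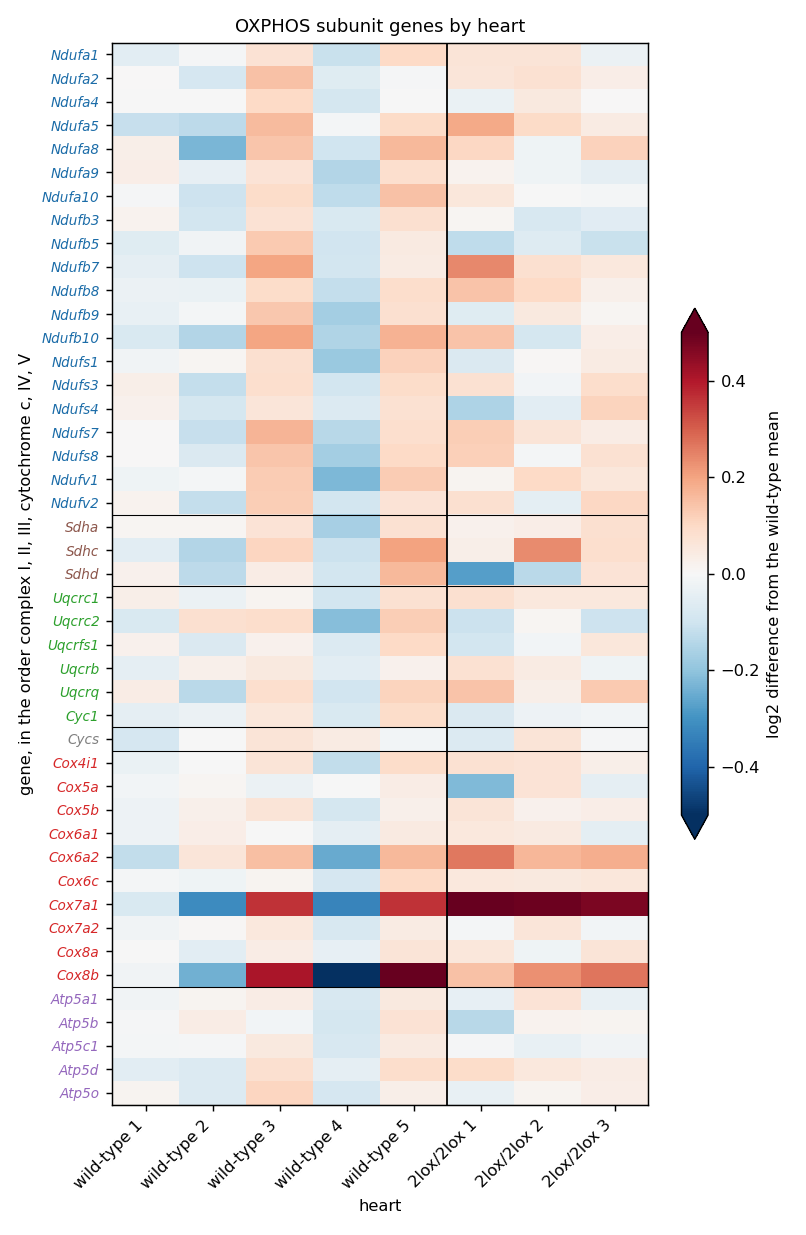
Log2 difference of each of the 45 genes (rows, by complex) from its wild-type mean in each heart (columns), from blue (lower) to red (higher). Columns of wild-type hearts 3 and 5 are mostly red and that of heart 4 mostly blue, and the strongest colours lie in the rows of *Cox7a1* and *Cox8b*.

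Among single genes the wild-type range had a median of 0.21. After *Cox8b* the widest were *Cox7a1* with 0.69 and *Cox6a2* with 0.42, followed by *Ndufa8* with 0.39. For 23 genes all 3 2lox/2lox hearts lay inside the wild-type range, for 13 genes 2 of them did, for 5 genes 1 did and for 4 genes none did. The last were *Cox6a2* and *Cox7a1*, and *Cox5a* and *Cox6a1*, where 2lox/2lox hearts fell on both sides of the range. The same was not counted over all genes, so these counts only describe the members. Within complex I the median deviation was 0.13 in wild-type heart 3 and -0.11 in heart 4, and within complex V it was 0.05 and -0.08. Heart 2 differed more, with -0.09 within complex I, 0.0023 within complex IV and -0.0056 within complex V, and *Cycs* was above its wild-type mean in heart 4.

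Citric acid cycle enzymes had the same highest and lowest hearts, with median deviations of 0.10 in both wild-type hearts 3 and 5 and -0.11 in both hearts 2 and 4. Cardiomyocyte markers had 0.06, 0.07, -0.01 and -0.12 in hearts 3, 5, 2 and 4. Other cell types differed between these hearts too. Fibroblast and matrix markers were at 0.37 in wild-type heart 2 and -0.26 in heart 3, and erythroid markers at 0.62 in heart 4. Their part in the order of the subunit genes was not tested.

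**Figure D4:**
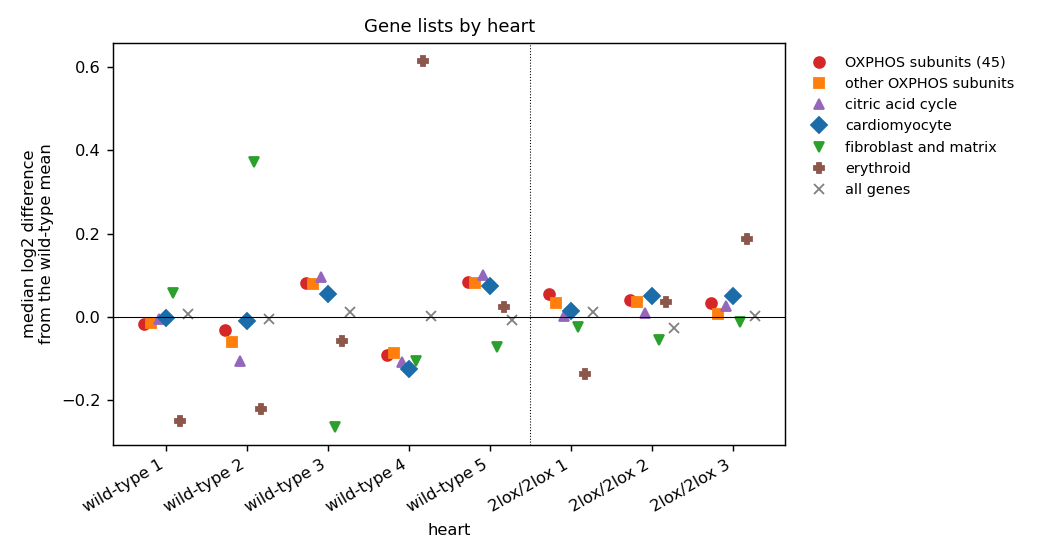
Median deviation (log2, from wild-type means) of 7 sets of genes in each heart. The 45 subunit genes, 34 other subunits and citric acid cycle enzymes lie highest in wild-type hearts 3 and 5 and lowest in heart 4 or 2, while erythroid markers reach 0.62 in wild-type heart 4 and fibroblast markers 0.37 in wild-type heart 2.

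The remaining nuclear subunits of the 5 complexes, 34 measured of 37 listed, gave similar counts. In limma 0 passed the adjusted threshold. At an unadjusted p under 0.05 1 gene was higher and 0 were lower, against 5.82% and 4.41% of all genes, and the median difference was 0.01. *Cox6b2*, known as the testis form of subunit VIb, had log2 values of 7.65, 7.34, 7.82, 7.84 and 7.64 in the wild-type hearts and 7.97, 7.90 and 7.97 in the 2lox/2lox hearts. All 2lox/2lox hearts were higher, with a difference of 0.29 (standard error 0.10, limma adjusted p = 0.356). *Ndufs5*, a complex I subunit, was the 1 gene of the 34 with all 2lox/2lox hearts below the wild-type hearts, against 2.81% of all genes. Its difference was -0.18 (limma adjusted p = 0.476). It is 1 of 3 in this list that lie within 20 Mb of *Kdm1a*, and for the others there the groups overlapped. None of the 45 genes lies that close. *Cox7c* and *Ndufa3* had 0.22 and 0.08. The probe set of *Cox7c* was dim, with a mean of 5.60, where 30 of the 34 genes had means above the 95th percentile of the array. For *Ndufa3*, as for *Cox6b2*, the 2lox/2lox hearts lay above every wild-type heart, which made 2 of the 34, against 3.16% of all genes.

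Assembly factors put the complexes together, and of 41 measured 0 passed the adjusted threshold in limma. At an unadjusted p under 0.05 they held 1 higher and 3 lower, against 5.82% and 4.41% of all genes, with a median of -0.02 over the list. *Cox10*, which makes the heme of complex IV, had log2 values of 8.54, 8.28 and 8.05 for 2lox/2lox, while wild-type ran from 7.76 to 8.02. These groups did not overlap, and the difference was 0.38 (limma adjusted p = 0.262). It was the 1 gene of the 41 with all 2lox/2lox hearts above the wild-type hearts, against 3.16% of all genes. For 2 of the 41 all 2lox/2lox hearts lay below, against 2.81% of all genes. The complex I factors *Nubpl* and *Tmem126b* had -0.43 and -0.18, and *Atpaf2*, a factor of complex V, had -0.25, each lowest in 2lox/2lox heart 1, with overlapping groups.

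Regulators of mitochondrial biogenesis, 24 measured, had 0 past the adjusted threshold in limma. An unadjusted p under 0.05 was reached by 4 in the higher and 2 in the lower direction, with a list median of 0.02. The shares over all genes were 5.82% and 4.41%. The coactivators *Ppargc1b* and *Pprc1* had 0.52 and 0.20 (limma adjusted p = 0.354 and 0.352), *Tfb1m*, a mitochondrial rRNA methyltransferase, had -0.14, and *Polrmt*, the mitochondrial RNA polymerase, had 0.16. Of 13 citric acid cycle enzymes, 0 passed the adjusted threshold in limma and 2 were higher at an unadjusted p under 0.05, *Ogdh* with 0.23 and *Dlst* with 0.19, both of the oxoglutarate dehydrogenase complex. The third enzyme of that complex, *Dld*, had -0.21, and *Suclg2*, of succinyl-CoA ligase, had 0.13. The 1 measured gene of mitochondrial DNA, *mt-Nd5*, had -0.04 (limma adjusted p = 0.934).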

How the data were processed

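The authors deposited log2 expression values of 45101 probe sets for 8 hearts (5 wild-type, 3 2lox/2lox). How probes were summarized and normalized is not stated in the sources used here and could change dim probe sets most. Limma, with no version, is named in the submitters' processing notes. Arrays have no depth, and their number limits the precision. Groups came from the labels, and replicate numbers did not pair the hearts (correlations of deviations 0.01, -0.08 and -0.05).

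The difference 2lox/2lox minus wild-type was fitted by limma 3.58.1 (functions lmFit and eBayes, R 4.3.3) in each probe set. Tests were two-sided, with the adjustment of Benjamini and Hochberg across the whole array and a threshold of 0.05. Genes were named by the platform annotation, brought up to date with RefSeq (99.4% of 34958 single-gene probe sets matched, 932 had several genes and 9211 none). A gene was represented by its brightest probe set annotated to it alone, and the 45 genes had 96 probe sets in all. All members are named, with values per heart for the highest and lowest of each complex, *Cycs*, the complex IV pairs and *Ndufa1*, and of each other list at most 4 genes, those with the smallest p. *Myod1*, *Myog*, *Myh3* and *Ndufb4* were added after their values were seen. The members and lists were chosen with earlier results of these data known, so counts over a list are descriptions. Alternatives were 12 other settings (moderation, normalization, filters, array weights, replicate block, a covariate for sex score or for the 3′ excess over 5′ signal, choice of probe set) and each of 8 hearts left out. The fit was tested on simulated data. Promoter windows came from RefSeq, GRCm38.p6, and both strands were searched.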

Additional observations from a re-analysis of the deposited data

Results flagged for a closer look

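*Sdha* in wild-type heart 4 stood apart from the other wild-type hearts, with a log2 value of 12.08 where the other 4 lay between 12.26 and 12.32. The gap was 0.72 of the whole range. Of the 45 genes tested this way, chance gives about 2.25 such hearts, and 1 was found.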

How the results depend on the processing

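The count of subunit genes past an adjusted p of 0.05 was 0 under all 20 alternatives, and the smallest adjusted p of any gene was 0.227, for *Cox7a1* with the sex score as a covariate. The count higher at an unadjusted p under 0.05 was 1, and it was 2 with an intensity trend in the moderation (*Cox6a2* added) and 0 when the 3′ excess over 5′ signal entered as a covariate. With each heart left out in turn it ran from 1 to 3. It was 3 without wild-type heart 3 (*Cox7a1*, *Cox6a2* and *Ndufb7*) and 2 without wild-type heart 5. The count lower ran from 0 to 1, with *Sdhd* added without 2lox/2lox heart 3. Between 42 and 44 genes had an interval within a fold of 1.4, and the median difference ran from 0.0048 (without wild-type heart 4) to 0.05. The difference of *Cox7a1* was 0.42 to 0.59 with a heart left out and passed an unadjusted p of 0.05 in 19 of 20 alternatives. *Cox7a1* has 1 probe set, so the choice of probe set and the filters could not change its difference. Those settings are therefore no separate check of it. *Cox6a2* ran from 0.12 to 0.24. With a replicate block, which the numbers do not warrant as a pairing, the median was 0.02 and 44 intervals lay within a fold of 1.4, and no call changed. The causes of these shifts were not tested. Values near the lower quartile, 4.21, cannot be told from background. This touches dim markers, the subunit *Ndufb4* of the further list and some dimmer probe sets of the 45 genes, but none of the brightest probe sets used for them.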

Other observations

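Markers of cell types other than myeloid cells and skeletal muscle were read for the differences between genotypes. Counted at an unadjusted p under 0.05, 3 of 11 endothelial markers were higher and 0 lower (median 0.16), of 6 adipocyte markers 0 and 0 (median 0.02), of 7 lung markers 1 and 0 (median -0.05), of 8 erythroid markers 0 and 0 (median 0.06), and of 12 fibroblast and matrix markers 1 and 1 (median -0.03), and of 22 cardiomyocyte markers 3 (*Gata4*, *Mybpc3*, *Nkx2-5*) and 1 (*Nppa*, median 0.04). Among all genes 5.82% were higher and 4.41% lower at that unadjusted p. In these lists 0 passed the adjusted threshold in limma.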
